A study of Homo sapiens with 3 samples.

Results

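Star strands are the mature miRNAs that carry an asterisk in the older naming of miRNAs, which gave the asterisk to the strand of a duplex taken for the minor one. The endogenous star strands were chosen as all human names on the array that ended in an asterisk, except miR-195* and miR-497*, which the transfected duplexes brought into the cells. This gave 169 of the 851 human names on the array, beside 680 human names without an asterisk. The choice used names only and no measured value.

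RNA bound to Argonaute2 (Ago2) was recovered by immunoprecipitation (Ago2-IP) from Hep G2 cells, an established human liver cancer line, at 24 h. The 3 groups were cells transfected with a miR-195 duplex mimic (double-stranded RNA, 5 nM), cells transfected likewise with a miR-497 mimic, both with a lipid reagent, and non-treated cells. Of the recovered RNA 10 ng per group carried the dye Cy3 to 1 Agilent miRNA array, and all 3 arrays were printed on 1 slide. The non-treated cells were not transfected, so the mimic and the transfection itself cannot be told apart, and no array of total RNA or of a control antibody was analysed here.

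A miRNA hairpin is cut into a duplex of its 5p and 3p arms, and an Argonaute protein keeps one strand of it. The retained guide pairs with mRNAs mainly through its seed, the bases just behind its 5' end, while the passenger strand is usually released and degraded. Some duplexes load both strands, and the arm that prevails can differ between tissues, so an asterisk does not always mark the scarcer strand in a given cell.

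Signals are intensities on a linear scale with background subtracted, summed over the probes of a miRNA, and are called units here. The SD after a signal is that of repeat spots on one array, combined over the probes of a miRNA. It rests on 12 to 16 spots for each star strand well above background on the non-treated array. The SD after a difference or a balance combines those of the signals compared. These spot SDs hold the error within arrays, and differences among cultures, precipitations and arrays are not in them. With 1 array per group there was no replicate check, no test between groups was possible, and the small number of arrays limits the precision. In an immunoprecipitate of a whole culture, fewer cells with a strand and less of the strand per cell cannot be told apart.

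Of the 169 star strands, 157 were matched to a mature sequence of RefSeq (GRCh38.p14). The deposited files hold no probe sequences, so the arm behind an old star name was taken from background knowledge of the renaming. The first sequences are those of the duplexes whose star strand gave the brighter signal or the sole signal on the non-treated array. The duplex of miR-505*, also of this kind, is left out because miR-505* was not matched to a sequence. Each is written 5' to 3', the capitals mark the seed (bases 2 to 8), and the strand without an asterisk follows its star strand.
miR-500* (miR-500a-3p): aUGCACCUgggcaaggauucug
miR-500 (miR-500a-5p): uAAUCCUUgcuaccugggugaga
miR-550* (miR-550a-3p): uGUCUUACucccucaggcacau
miR-550 (miR-550a-5p): aGUGCCUGagggaguaagagccc
miR-624* (miR-624-5p): uAGUACCAguaccuuguguuca
miR-624 (miR-624-3p): cACAAGGUauugguauuaccu
miR-34b* (miR-34b-5p): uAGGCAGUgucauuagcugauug
miR-34b (miR-34b-3p): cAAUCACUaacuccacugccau
miR-340* (miR-340-3p): uCCGUCUCaguuacuuuauagc
miR-340 (miR-340-5p): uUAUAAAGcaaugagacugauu

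The next sequences belong to some of the duplexes in which the strand without an asterisk was brighter and both strands could be followed between arrays. miR-92a-1* and miR-92a-2* come from separate genes that make the same miR-92a. miR-24-2*, which was called on no array, is shown beside miR-24-1* because the seeds are the same.
miR-17* (miR-17-3p): aCUGCAGUgaaggcacuuguag
miR-17 (miR-17-5p): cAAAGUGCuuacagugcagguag
miR-363* (miR-363-5p): cGGGUGGAucacgaugcaauuu
miR-363 (miR-363-3p): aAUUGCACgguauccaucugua
miR-92a-1* (miR-92a-1-5p): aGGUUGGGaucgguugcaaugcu
miR-92a-2* (miR-92a-2-5p): gGGUGGGGauuuguugcauuac
miR-92a (miR-92a-3p): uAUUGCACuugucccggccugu
miR-29b-1* (miR-29b-1-5p): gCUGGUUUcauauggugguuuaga
miR-29b (miR-29b-3p): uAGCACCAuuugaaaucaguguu
miR-30e* (miR-30e-3p): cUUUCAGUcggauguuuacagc
miR-30e (miR-30e-5p): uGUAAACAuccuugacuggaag
miR-24-1* (miR-24-1-5p): uGCCUACUgagcugauaucagu
miR-24-2* (miR-24-2-5p): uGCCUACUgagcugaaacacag
miR-24 (miR-24-3p): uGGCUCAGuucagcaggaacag

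Few star strands were measurable in Ago2. A miRNA was called well above background when at least 1 of its probes was, and a probe when over 50% of the spots used had the scanner software's flag for it. On the non-treated array 23 star strands (13.6%) passed, beside 19.7% of all human names and 21.3% of the names without an asterisk. On the miR-195 array 16 star strands (9.47%) passed, beside 18.0% of all human names, and on the miR-497 array 12 (7.10%) passed, beside 14.2%. The share of star strands was thus below that of all human names on each of the 3 arrays, and it was lowest on the miR-497 array. The star strands held 1.23%, 1.0% and 1.1% of the summed human signal on the non-treated, miR-195 and miR-497 arrays. That sum includes the transfected strands, with 38522 units for miR-195 on the miR-195 array and 7903 for miR-497 on the miR-497 array. These shares are therefore not compared between arrays.

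The detected sets were nested. The same 12 star strands were well above background on all 3 arrays, 4 more were so on the non-treated and miR-195 arrays, 7 on the non-treated array alone, and 146 on none. No endogenous star strand was well above background on a transfected array without being so on the non-treated array. This overlap was not particular to star strands. Of all human names, 153 were called on the miR-195 array, among them miR-195, miR-497 and miR-195*. On the miR-497 array 121 were called, among them miR-195, miR-497 and miR-497*. With the transfected miRNAs and their star strands left out, 147 and 118 human names were measured both there and on the non-treated array. The brightness of the arrays moved with these counts. The 75th percentile over the 183 probes well above background on all 3 arrays was 827 units in non-treated cells, 778 with miR-195 and 263 with miR-497, and the lowest human signal called was 11.1, 23.7 and 19.1 units. The part of brightness in the lower counts was not tested.

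Most of the detected star strands lay near the lower end of the measurable range. On the non-treated array their signals ran from 15.1 to 328 units with a median of 81.9, whereas the 145 detected names without an asterisk had a median of 237 units and reached 71328. No spot was saturated. All probes were above background for 5 of the 23 star strands on the non-treated array, for 2 of the 16 with miR-195 and for none of the 12 with miR-497, each of which rested on 1 probe. At the edge of the call on the non-treated array, the best probes of miR-454* and miR-7-1* had 75% of their spots above background, with 17.1 and 17.3 units. Just outside, the best probes of let-7d* and miR-200b* had 25%, with 13.4 and 13.2 units. On the miR-497 array miR-363* fell just outside, with 50% of the spots of its best probe above background and 17.6 units.

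**Figure D1:**
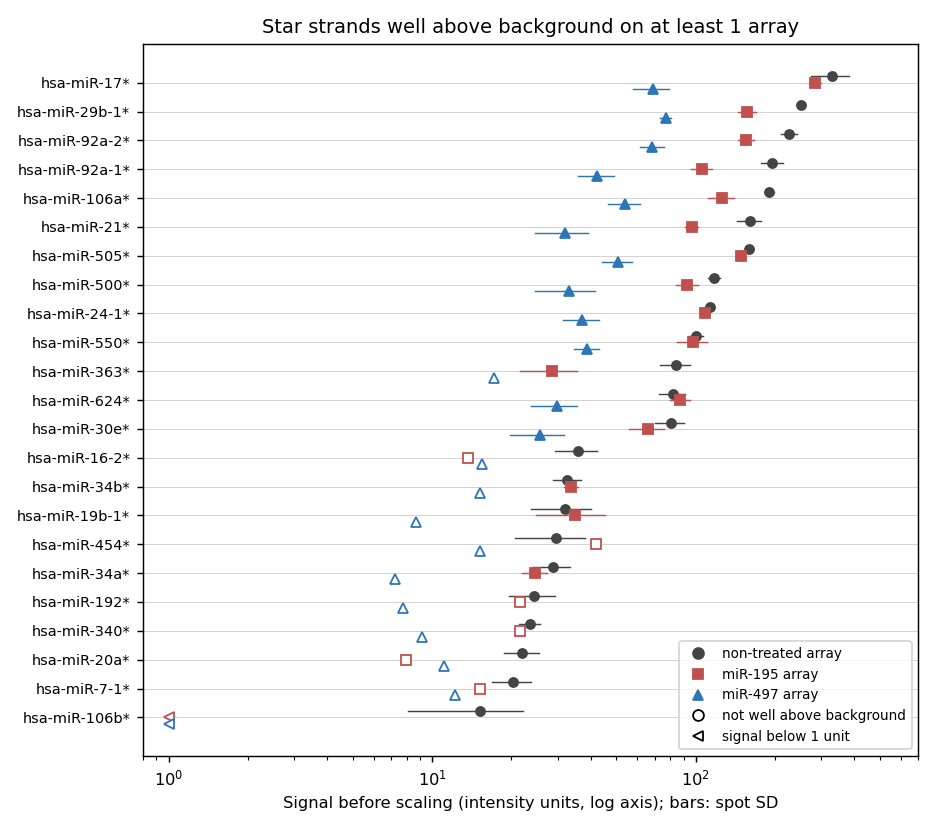
Signal in intensity units before any scaling (log x axis) of the 23 star strands well above background on at least 1 array. Each row holds 1 point per array, filled where the strand was well above background and hollow where it was not, with bars for the spot SD. The points of the miR-497 array lie to the left of those of the non-treated array in all 23 rows, and the 12 rows with 3 filled points are the strands measured on all 3 arrays.

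The cell line was checked against miRNAs of known cell types. Of 3 hepatic miRNAs, miR-192 and miR-194 were well above background on each array and miR-122 was on none. Of 11 miRNAs typical of blood, muscle, nerve or endothelium, miR-142-3p and miR-142-5p were well above background on each array, with 1521, 1244 and 397 units for miR-142-3p on the non-treated, miR-195 and miR-497 arrays. The markers miR-223, miR-451 and miR-144 were at background on all 3. For scale, the star strand of the transfected duplex gave 10321 units for miR-195* after its transfection and 272 units for miR-497* after its own, against a highest endogenous star signal of 328 units on any array.

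Among the families and clusters counted, the related miR-17 and miR-106a clusters held the most detected star strands. Their hairpins are cut from single primary transcripts and are known as growth-promoting miRNAs. Of the 6 star strands of the miR-17 cluster on the array, 4 were well above background in non-treated cells, 3 with miR-195 and 2 with miR-497. Of the 6 of the miR-106a cluster the counts were 3, 3 and 2. Over all 169 star strands the shares were 13.6%, 9.47% and 7.10%. The third cluster of this kind, that of miR-106b, which lies within the span of MCM7, gave 1 of 3 on the non-treated array and none on the transfected arrays. All partners of these clusters on the array were well above background on all 3 arrays. The part of partner brightness in the star counts was not tested.

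In non-treated cells and with miR-195 miR-17* was the brightest endogenous star strand, with 328 ± 54.5 and 284 ± 14.5 units, and it gave 68.7 ± 10.702 units with miR-497. Its partner miR-17, a repressor of cell cycle inhibitors, gave 14978, 14192 and 5708 units. The star signal was 2.19%, 2.0% and 1.2% of the partner's. Different probes differ in brightness, so these percentages set signals side by side and are not ratios of molecules.

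Before scaling, both star strands made beside miR-92a gave more signal on the non-treated array than on either transfected array. miR-92a-1*, from the host gene MIR17HG on chromosome 13, gave 195.4 ± 18.4, 105 ± 9.62 and 42.4 ± 6.67 units on the non-treated, miR-195 and miR-497 arrays. miR-92a-2*, from MIR106AHG on chromosome X, gave 226 ± 15.8, 156 ± 11.1 and 68.6 ± 7.29 units. Their common partner miR-92a gave 4037, 3500 and 1222 units, so the strand made at both loci stood 17.9 times above miR-92a-2* and 20.7 times above miR-92a-1* on the non-treated array.

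miR-106a* gave 191 ± 7.31, 126 ± 14.6 and 53.9 ± 7.30 units, and its partner was not analysed here. miR-363*, from the same host gene as miR-92a-2*, gave 84.0 ± 11.0 units in non-treated cells, 28.5 ± 6.88 with miR-195 and, not well above background, 17.1 units with miR-497. Its partner miR-363 gave 17456, 14146 and 6521 units and was among the brightest miRNAs on each array. The star strand of the bright partner miR-19b, miR-19b-1*, gave 32.0 ± 8.22 and 34.9 ± 10.2 units on the non-treated and miR-195 arrays, beside 16778 and 15177 units for miR-19b, and was not called on the miR-497 array. Beside 8110 units of miR-20a, miR-20a* gave 22.03 ± 3.33 units on the non-treated array, and beside 3122 units of miR-106b, miR-106b* gave 15.1 ± 7.02 units. Neither was well above background on a transfected array. The partners miR-17, miR-20a and miR-106b share the seed AAAGUGC and much of their sequence, and how far their probes also take up each other was not tested.

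In 6 duplexes the star strand gave the brighter or the sole signal on the non-treated array. With miR-505* the star strand gave 160 ± 5.24 units in non-treated cells, 148 ± 5.93 with miR-195 and 50.6 ± 6.63 with miR-497, and its partner miR-505 gave 47.0 and 35.9 units on the first pair of arrays and no call on the last. The star signal was thus 3.40 times that of the partner on the non-treated array and 4.12 times on the miR-195 array. miR-624*, whose precursor lies within the span of STRN3, gave 81.9 ± 9.30, 87.5 ± 7.52 and 29.7 ± 5.92 units. Its partner gave 42.9 and 37.7 units in non-treated cells and with miR-195, and was not called on the third array. The star signal of miR-624* was 1.91 and 2.32 times that of miR-624 on those arrays.

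For the other four duplexes the strand without an asterisk was not well above background on any of the 3 arrays. miR-500*, from a group of miRNA genes within CLCN5 on chromosome X, gave 118 ± 6.0, 93.1 ± 8.80 and 33.1 ± 8.45 units. Against the lowest human signal called on the array, this was at least 10.6 times the signal of miR-500 on the non-treated array and at least 3.93 and 1.73 times on the miR-195 and miR-497 arrays. miR-550* gave 100.2 ± 6.32, 97.6 ± 12.98 and 38.8 ± 4.21 units, 9.01, 4.12 and 2.03 times the value at which miR-550 was held likewise. The brightness of the array and its lowest called signal enter these ratios, which are therefore not compared between arrays. The held value is no detection limit, since on the non-treated array let-7d* gave 29.5 units without a call.

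miR-34b* and miR-340* were dimmer. miR-34b belongs to the miR-34 family, known as a target of p53, and its star strand is the 5p arm, which resembles miR-34a. miR-34b* gave 32.6 ± 3.96 units in non-treated cells and 33.7 ± 2.06 with miR-195, and was not called on the miR-497 array. These were 2.93 and 1.42 times the value at which miR-34b was held. On the non-treated and miR-195 arrays miR-34a, which shares an unbroken run of 9 bases with miR-34b*, gave 1695 and 1995 units. How far the probes of miR-34b* also take up miR-34a was not tested. miR-340*, from within the span of RNF130, gave 23.5 ± 2.13 units on the non-treated array, 2.11 times the held value of miR-340. It was called on neither transfected array.

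The signal of miR-500* cannot be assigned to 1 miRNA with certainty. miR-500* shares an unbroken run of 20 bases with miR-502-3p, which gave 86.6, 81.8 and 27.4 units on the non-treated, miR-195 and miR-497 arrays, and 13 bases with miR-501-3p, which gave 46.4 and 35.3 units on the non-treated and miR-195 arrays. All of these come from the hairpins clustered within CLCN5. miR-550* shares 18 bases with miR-550b-3p, which was not analysed here. Where the near copy is another star strand, detection was one-sided. miR-19b-2* shares 18 bases with miR-19b-1*, miR-30a* shares 17 with miR-30e*, and miR-24-2* shares 15 with miR-24-1*, and these 3 near copies were called on no array.

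**Figure D2:**
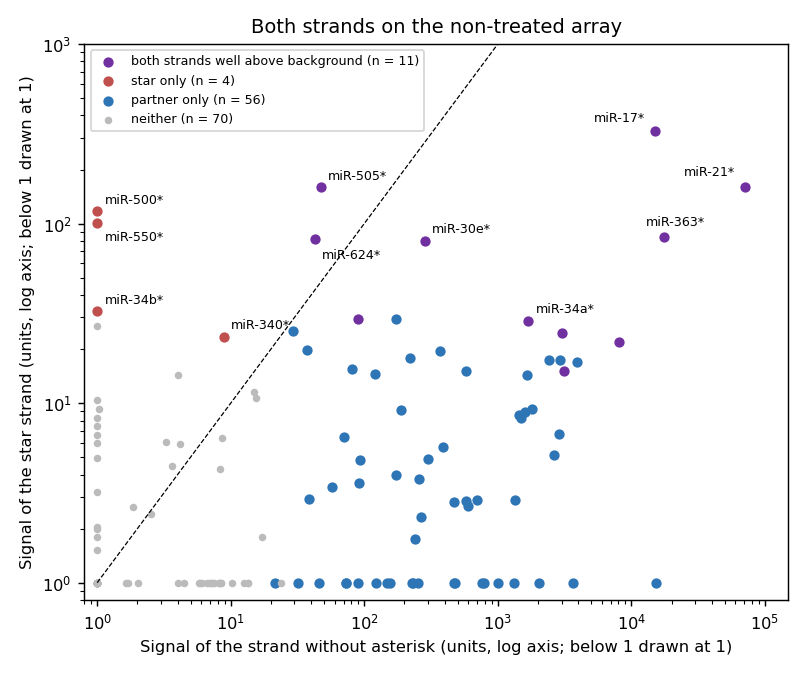
Signal of each star strand (log y axis) against that of the strand with the same name without the asterisk (log x axis) on the non-treated array in intensity units, for the pairs with an exact partner name. Points above the dashed line of equal signal have the brighter star strand. Among pairs with at least 1 strand well above background, 6 coloured points lie above the line, named miR-500*, miR-550*, miR-34b*, miR-505*, miR-624* and miR-340*.

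Other families gave 1 detected star strand each. In the miR-29 family, known for repressing collagen and other matrix genes, miR-29b-1* gave 251 ± 8.77, 157 ± 12.8 and 76.8 ± 3.79 units, beside 2352, 1854 and 636 units of miR-29b. The other star strands of the family, 3 in number, were called on no array. Of the 6 star strands of the miR-23/27/24 clusters only miR-24-1*, whose precursor lies within the span of AOPEP, was measured, with 113 ± 4.58, 108 ± 4.57 and 37.1 ± 5.75 units beside 1541, 1171 and 380 units of miR-24. Of the 6 of the miR-30 family only miR-30e*, from within NFYC, was measured, with 80.5 ± 10.2, 65.9 ± 9.93 and 25.7 ± 5.93 units beside 283, 315 and 85.5 units of miR-30e. At 28.4% of its partner's signal on the non-treated array, miR-30e* had one of the most even balances among detected star strands dimmer than their partners, next to miR-454* with 32.9%.

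miR-21* stood beside the brightest miRNA of the array. miR-21, widely raised in tumours, gave 71328, 53636 and 37516 units, and miR-21* gave 160 ± 16.1, 96.7 ± 5.26 and 31.8 ± 7.19 units. The star signal was 0.225%, 0.180% and 0.0848% of that of miR-21 on the non-treated, miR-195 and miR-497 arrays.

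The other detected star strands gave under 40 units on the non-treated array. miR-16-2* is the star strand of miR-16, whose family also holds the transfected miR-195 and miR-497, and gave 35.7 ± 6.55 units beside 5713 units of miR-16. Its seed CAAUAUU is shared by miR-195*, the passenger strand of the transfected duplex. Although miR-195* was at 10321 units on the miR-195 array, miR-16-2* gave 13.6 units there and was not well above background. miR-34a*, from the main p53-responsive member of the miR-34 family, gave 28.8 ± 4.66 and 24.6 ± 2.71 units on the non-treated and miR-195 arrays, beside 1695 and 1995 units of miR-34a. On the non-treated array alone, miR-454* gave 29.4 ± 8.74 units beside 89.4 of miR-454, miR-192* gave 24.4 ± 4.83 beside 3003 of the hepatic miR-192, and miR-7-1* gave 20.4 ± 3.41 beside 356 of miR-7. On the miR-195 array miR-454* had a higher summed signal, 41.7 units, but no probe with more than 50% of its spots above background.

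Several families had detected partners and no detected star strand. None of the 9 let-7 star strands was well above background, while 7, 7 and 6 of their 8 partners were so on the non-treated, miR-195 and miR-497 arrays. None of the 4 star strands of the epithelial miR-200 family was, while all 4 partners were on each array. On the non-treated array the partners ran from 12.6 units for let-7c to 1799 for let-7a, and from 123 for miR-141 to 1481 for miR-200b. Over all 169 star strands the share called was 13.6%, 9.47% and 7.10% on the non-treated, miR-195 and miR-497 arrays. Whether an empty count in sets of 9 or 4 differs from that share was not tested. The 5 undetected star strands with the brightest partners were miR-19b-2*, miR-20b*, miR-16-1*, miR-15b* and miR-22*, beside 16778, 15278, 5713, 3937 and 3659 units of miR-19b, miR-20b, miR-16, miR-15b and miR-22 on the non-treated array. With the star strands held at the lowest human signal called on that array, miR-20b gave 1373 times the value of miR-20b*, and miR-22 329 times that of miR-22*.

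A bright partner often stood without a measured star strand, and on the non-treated array star strands were called more often where the partner gave more signal. Among star strands whose partner gave under 50 units on the non-treated array, 6 of 89 were well above background there. The counts were 3 of 36 for partners from 50 to 500 units, 7 of 32 from 500 to 5000 units, and 6 of 9 above 5000 units. The last bin holds miR-17*, miR-19b-1*, miR-19b-2*, miR-20a*, miR-20b* and miR-363* of the miR-17 and miR-106a clusters. It also holds miR-16-1*, miR-16-2* and miR-21*. In it miR-19b and miR-16 each serve as partner of both their locus star strands, so the bin is not independent of the cluster counts above. In the same bins 5, 1, 5 and 4 star strands were called on the miR-195 array and 4, 1, 4 and 2 on the miR-497 array, so there the share was lower from 50 to 500 units than under 50 units. Over the pairs with an exact partner name, both strands were well above background in 11 on the non-treated array, the star strand alone in 4, the partner alone in 56 and neither in 70. On the miR-195 array these counts were 7, 3, 57 and 74, and on the miR-497 array 3, 4, 51 and 83.

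The first base differed between star strands and partners. Ago2 is known to hold the first base of its guide in a pocket that favours U or A. Among the 20 detected star strands with a sequence, 5 began with U (25%), whereas 14 of their 20 partners did (70%). Among the 137 undetected star strands with a sequence 21 began with U (15.3%), and 84 of their 129 partners with a sequence did (65.1%). The base A went the other way, opening 6 of the 20 detected star strands (30%) and 2 of their 20 partners (10%). It opened 41 of the 137 undetected star strands (29.9%) and 27 of their 129 partners (20.9%). C was the most frequent first base of both detected (7 of 20) and undetected (55 of 137) star strands. The arms were mixed in both sets, with 9 from the 5p and 11 from the 3p arm among the detected and 57 and 80 among the undetected, and the median GC share was 45.5% and 50%. These are descriptions of the sequences, which share families and hairpins, and their difference was not tested.

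To compare the arrays, signals were divided by the array's 75th percentile over the 183 shared probes and given as log2 differences. On the miR-195 array 11 of the 16 star strands measured on both arrays were below their non-treated value (68.8%, beside 51.0% of the 147 human miRNAs measured, the 2 transfected miRNAs and their star strands left out). The split depended on the scaling, since 7 of the 16 were below with spike-in scaling, 13 without scaling, 14 after quantile normalization and 16 with the 75th percentile over all probes. The median over all human miRNAs moved too, by 0.24, -0.09, -0.19 and -0.54 under these settings in the same order. With the scaling used here the median difference of the 16 star strands was -0.17, beside -0.01 over the 147. A single star strand, miR-363*, was lower by at least 2-fold, beside 0.680% of the 147, and none was higher by that fold, beside 2.72%. Lower by more than 2 spot SDs were 6 of the 16, beside 12.9% of the 147, and none was higher by that margin, beside 16.3%. These counts were 14 lower and 0 higher with the 75th percentile over all probes, and 4 lower and 3 higher with spike-in scaling. The shifts of the median over all human miRNAs under these settings enter these counts too.

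miR-363* had the lowest difference of all 147 human miRNAs, -1.48 (spot SD 0.40), while its partner miR-363 differed by -0.22. One of its 4 probes was above background on both arrays, and this probe alone gave -1.19, so with at least 2 probes required miR-363* could not be compared. The value of miR-363* depended on the background step. With a model of background and signal (normexp) in place of the background subtraction of the scanner software it was -0.15, and across 11 alternative settings it ran from -2.01 to -0.15. Normexp as used here also added an offset of 50 units to each spot, which weighs more on dim signals than on bright ones. The parts of the model and of the offset were not separated.

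The other five lower star strands were miR-92a-1* at -0.80 (spot SD 0.19), miR-21* at -0.64 (0.17), miR-29b-1* at -0.59 (0.13), miR-106a* at -0.51 (0.18) and miR-92a-2* at -0.45 (0.14). Where over 1 probe was measured on both arrays the probes shared a direction, with differences from -0.77 to -0.54 over the 3 probes of miR-29b-1*, from -0.83 to -0.70 over the 2 probes of miR-92a-1* and from -0.55 to -0.40 over the 2 probes of miR-92a-2*. miR-21*, miR-106a* and miR-363* had 1 such probe each. Together with miR-363* these 6 differences stayed below 0 under all alternative settings that gave a value, though with normexp they were nearer to 0, at -0.25 for miR-92a-1*. Of the 6, miR-363*, miR-92a-2* and miR-106a* come from the same cluster on chromosome X and miR-92a-1* from its relative on chromosome 13. Each of these clusters gave 3 of the 16 star strands measured. The others from chromosome 13, miR-17* and miR-19b-1*, differed by -0.12 (spot SD 0.25) and 0.21 (0.56).

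The remaining star strands lay within 2 spot SDs of no difference on the miR-195 array. miR-17* differed by -0.12 (spot SD 0.25), miR-505* by -0.02 (0.07), miR-24-1* by 0.02 (0.08) and miR-550* by 0.05 (0.21), and under other settings their signs turned, as did those of the rest except miR-500* at -0.25 (0.16). The highest value was that of miR-19b-1*, 0.21 (0.56). For miR-16-2*, measured on the non-treated array only, the signal with miR-195 was held at that array's lowest called human signal, 23.7 units. The scaled signal was then 1.42-fold lower, a log2 difference of -0.51, which ran from -1.04 to -0.04 across 11 alternative settings. The held value is no upper limit for uncalled strands, since miR-454* gave 41.7 units on this array without a call.

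On the miR-497 array 8 of the 12 star strands measured were below their non-treated value after scaling, beside 44.9% of the 118 human miRNAs measured on both arrays. Their median was -0.06, beside 0.03 over the 118, and none was past 2-fold in either direction, beside 3.39% higher and 0.00% lower among all. miR-21*, miR-17* and miR-92a-1* were the lowest, with -0.68 (spot SD 0.36), -0.61 (0.33) and -0.55 (0.26), and ranked 1, 2 and 4 from the bottom of the 118. Of these miR-92a-1* alone was lower by more than 2 spot SDs, beside 5.93% of all, and none was higher by that margin, beside 18.6%. The highest were miR-550* at 0.28 (0.18) and miR-624* at 0.19 (0.33).

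The sign of each of these differences on the miR-497 array turned with the scaling or with normexp and its offset. Of the 12, 5 were below with the median of the shared probes, 11 after quantile normalization, 12 without scaling, with spike-in scaling or with the 75th percentile over all probes, and 0 with normexp. Without scaling the 12 ran from -2.33 for miR-21* to -1.37 for miR-550*, and with normexp from 0.19 for miR-17* to 1.19 for miR-624*. The median over all human miRNAs moved too, by -1.65 without scaling, -1.38 with the 75th percentile over all probes, -1.27 with spike-in scaling and 0.43 with normexp. miR-21* and miR-17* remained the lowest pair of star strands with normexp too.

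miR-363* was measured on the non-treated array only in this comparison. With its miR-497 signal held at that array's lowest called human signal, 19.1 units, the scaled signal was 1.40-fold lower. This log2 difference of -0.48 ran from -2.14 to -0.38 across 9 alternative settings. Between the transfected arrays 2 of 12 star strands were lower with miR-497 after scaling, beside 41.9% of 117 human miRNAs, with a median of 0.14 beside 0.02. Without scaling, with spike-in scaling or with the 75th percentile over all probes all 12 were lower. Under these settings the median over all human miRNAs moved by -1.56, -1.51 and -0.85. With the scaling used here none of the 12 star strands passed 2-fold, beside 1.71% higher and 0.00% lower. miR-29b-1* at 0.53 (spot SD 0.14) and miR-92a-2* at 0.38 (0.18) were higher by more than 2 spot SDs, beside 10.3% of the 117, and miR-17* at -0.48 (0.24) was lower by that margin, beside 6.84%. Both comparisons with the non-treated array share that array, and the comparison of the transfected arrays shares one with each of them.

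**Figure D3:**
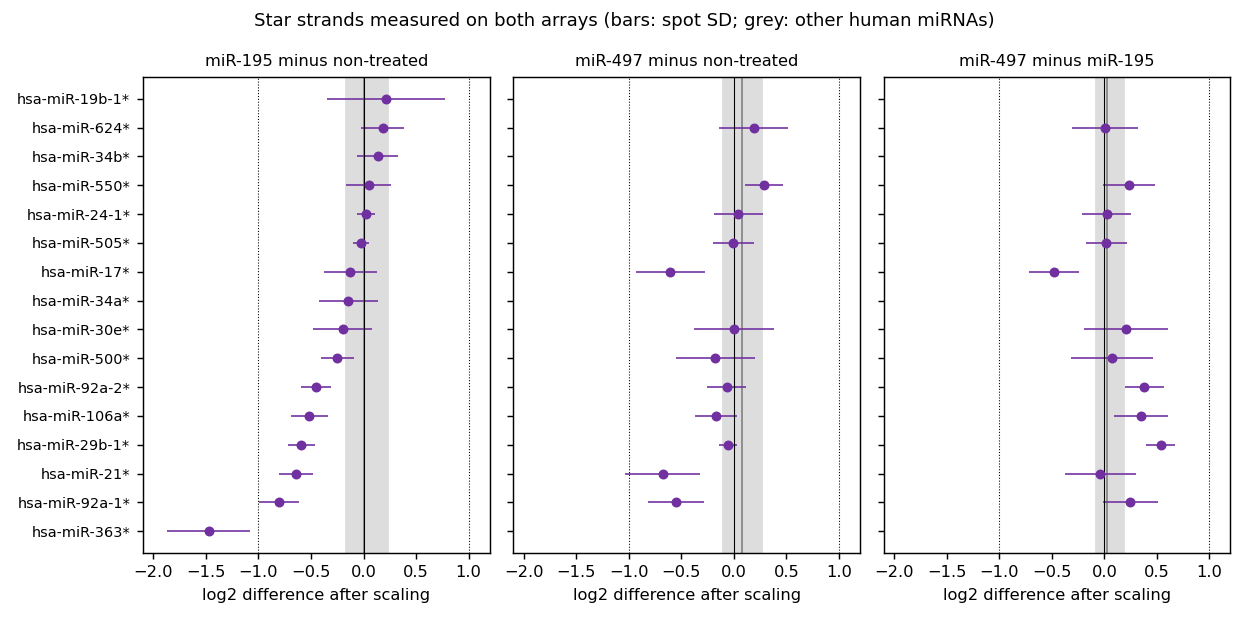
Difference in log2 signal after scaling (x axis) for star strands measured on both arrays of each comparison, 16, 12 and 12 strands from left to right, with bars for the spot SD. The grey band spans the quartiles of the human miRNAs without an asterisk, the grey line is their median, and dotted lines mark 2-fold. In the left panel miR-363* lies beyond the dotted line at -1.48, and no point of the other panels does.

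A factor that acts on a whole array cancels in the strand balance, the log2 of the star signal over the partner signal, so its change between arrays compares the strands with each other. For 7 pairs with an exact partner name it could be followed from the non-treated to the miR-195 array. The balance of miR-363*/miR-363 went from -7.70 (spot SD 0.20) to -8.96 (0.35), a change of -1.26 (0.40). The changes for miR-34a* and miR-30e* were -0.47 (0.29) and -0.44 (0.32), in both of which the partner was higher and the star strand lower on the miR-195 array. miR-21* and miR-17* differed by -0.32 (0.21) and -0.13 (0.29).

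The balances that favoured the star strand were higher on the miR-195 array, by 0.28 (0.20) for miR-505* and 0.28 (0.37) for miR-624*, both within 2 spot SDs. The median over the 7 pairs was -0.32, with 5 pairs below 0. miR-363* was the sole pair past 2 spot SDs, and its change was 0.06 with normexp and from -1.26 to -0.97 under the other alternatives.

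Pairs whose star name carries a locus number were set against the partner made at all its loci, so a change of the other locus enters the partner's signal. On the miR-195 array the balance of miR-92a-1* differed by -0.68 (0.22), and those of miR-29b-1* and miR-92a-2* by -0.33 (0.19) and -0.33 (0.18). In the opposite direction miR-24-1* differed by 0.33 (0.11), where the star strand differed by 0.02 and miR-24 by -0.31. miR-19b-1* differed by 0.27 (0.58).

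On the miR-497 array miR-21*/miR-21 had the largest change of balance, from -8.80 (0.18) to -10.20 (0.35), a change of -1.40 (0.40). Here the star strand differed by -0.68 and miR-21 by 0.72 after scaling. miR-17*/miR-17 went from -5.51 (0.27) to -6.38 (0.27), a change of -0.86 (0.38), with -0.61 for the star strand and 0.26 for miR-17. The balance of miR-30e*/miR-30e differed by 0.08 (0.43). With normexp the change was 0.07 for miR-21* and 0.12 for miR-17*, so the direction for both turned under this setting. The parts of its background model and its offset in this were not tested.

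Among the pairs with a locus number on the miR-497 array, the balance of miR-92a-1* differed by -0.48 (0.27), miR-92a-2* by 0.00 (0.19), miR-29b-1* by 0.18 (0.19) and miR-24-1* by 0.41 (0.27), and none of these passed 2 spot SDs. From the miR-195 to the miR-497 array the balance differed by -1.09 (0.37) for miR-21*, -0.73 (0.30) for miR-17* and 0.52 (0.43) for miR-30e*. For miR-21* this difference was -0.25 after quantile normalization and 0.02 with normexp, and for miR-17* it was 0.19 with normexp. Among the pairs with a locus number miR-29b-1* differed by 0.51 (0.18), the sole rise past 2 spot SDs.

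**Figure D4:**
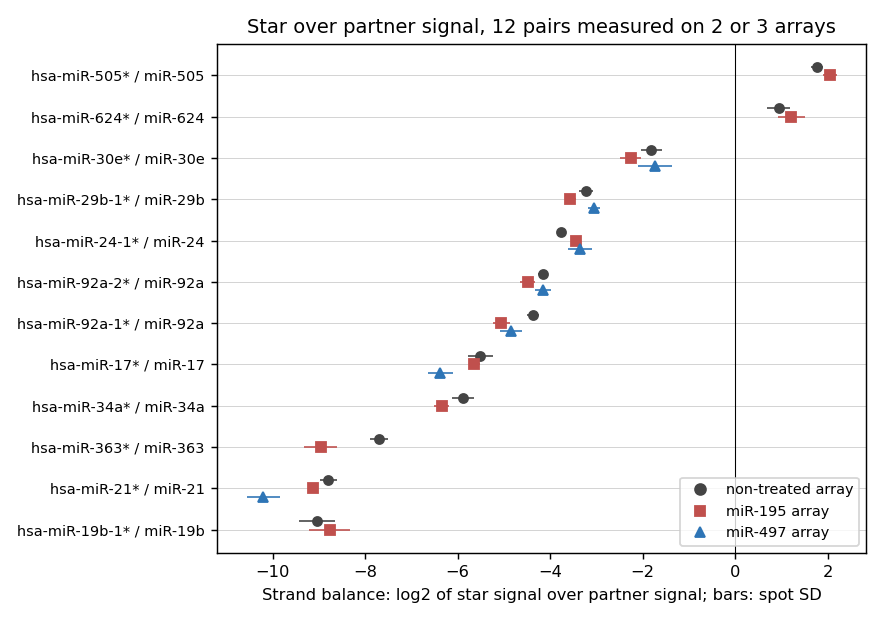
Strand balance, the log2 of star signal over partner signal (x axis), of 12 pairs measured in non-treated cells and with miR-195 and, where both strands were well above background, on the miR-497 array, with bars for the spot SD. The vertical line marks equal signal of both strands. miR-505* and miR-624* lie to the right of it, miR-363* is shifted left by 1.26 on the miR-195 array and miR-21* by 1.40 on the miR-497 array.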

How the data were processed

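Spot intensity, deposited by the authors as scanner output on a linear scale, had been background-subtracted and detrended within each array by the software named in the file headers (Agilent Feature Extraction 10.7.1.1), without scaling between arrays. A further deposited table of normalized log2 values equalled the total of that software per miRNA and was not used. Groups came from the sample labels, with 1 array each. In Python 3.11.15 (pandas 2.3.3), control spots and outlier spots were left out, the mean processed signal of each probe was summed per name, and arrays were scaled to the 75th percentile over 183 probes. Where a strand was not well above background it was held at its own signal or the array's lowest called human signal, whichever was higher. This is not an upper limit, since calls rest on spot flags and some uncalled strands gave more signal. The partner was the name without the asterisk, or also without a locus number. The alternative normexp background (limma 3.58.1, offset 50) used the raw and background signals. Every star strand well above background on at least 1 array was named with its partner, beside 5 undetected ones with the brightest partners and the 3 largest and smallest changes of balance. The members, groups and settings were chosen with earlier results of these data known. Scripts were tested on simulated data. The files name the hg19 build and RefSeq sequences are of GRCh38.p14, so no coordinates are given.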

Additional observations from a re-analysis of the deposited data

How the results depend on the processing

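Of the star strands, 11, 7 and 0 were well above background on the non-treated, miR-195 and miR-497 arrays when at least 2 probes had to be, so on the miR-497 array no comparison was then possible and 0 star strands were 2-fold lower on the miR-195 array. For the differences of the miR-195, miR-497 and (miR-497 minus miR-195) comparisons, the 75th percentile over all probes gave medians of -0.71, -1.45 and -0.71 with 5, 12 and 1 star strands lower by 2-fold. Spike-in scaling gave medians of 0.068, -1.34 and -1.38, with 11 and 11 lower in the comparisons with miR-497. Without scaling these were -1.71 and -1.43, with 12 and 12 lower. Normexp gave 0 lower on the miR-195 array and medians of 0.86 and 0.995 for the comparisons with miR-497, with 3 and 5 star strands higher by 2-fold. At 1.5-fold 4 star strands were lower with miR-195 and 2 with miR-497. The median change of strand balance was 0.049, 0.12 and 0.19 with normexp. For the comparisons with miR-497 it was -0.32 and -0.25 after quantile normalization, and 0.0034 and 0.20 with locus partners. Among changes of balance of at least 1 log2 unit 3 reversed, all with normexp, to 0.062 for miR-363* (miR-195 array), 0.068 for miR-21* (miR-497 minus non-treated) and 0.018 for miR-21* (miR-497 minus miR-195). Smaller ones that turned were miR-17* with normexp in the comparisons with miR-497, to 0.12 and 0.19, and on the miR-195 array miR-21* to 0.050 with normexp and miR-17* to 0.24 after quantile normalization. The other 106 summary values were within 1.5 times or within the spot SD. Of the remaining values, those of single strands and further counts and medians, 503 stayed within these limits and 212 moved by more. The cause was not tested. No paired analysis was possible because each group held 1 array and the labels give no replicate numbers. Precision is limited by 1 array per group and by signals near background, which most affect the miR-497 array. Spot SDs cover neither cultures nor immunoprecipitations.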
